A study of Zea mays with 2 samples.

Results

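The maize mitochondrial genome was followed by RNA-seq in kernel endosperm of dek37, a mutant with defective kernels, and of the wild type (WT), both sampled 18 days after pollination. Each genotype had 1 library, with 19106174 reads read back from the values of dek37 and 18139532 from those of WT. Every difference below is therefore one between 2 libraries, with no replicate check and no p-value. The entries described are those placed on the mitochondrion, 97 of the 56848 in the deposited tables, and the 34 chloroplast entries serve as a comparison. The sources used here do not give the number of kernels or plants behind a library, the inbred background, the dek37 allele or how RNA was selected for the libraries.

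Plant mitochondria carry a small set of genes for the respiratory chain, for their own ribosomes and for the maturation of c-type cytochromes, together with many open reading frames of unknown function. Several of the genes are interrupted by group II introns, and their removal needs proteins imported from the cytosol, many of them of the pentatricopeptide repeat family. DEK37 has been described as such a protein, required for the removal of the first intron of nad2, which encodes a subunit of complex I (NADH dehydrogenase). The entries thus report RNA from the genome on which DEK37 is thought to act.

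The deposited tables give a position and an RPKM value (a read number scaled by length and library size) for each entry, and no gene name. The 97 entries fall on 88 loci. Of these loci, 50 start and 49 end exactly at the first or last base of a mitochondrial gene in the RefSeq gene table of the assembly Zm-B73-REFERENCE-NAM-5.0, and 60 share at least 1 end. Moved by 1 base in either direction, 0 loci kept a matching start and 0 kept a matching end. Both ends fell on gene ends at 39 loci, and at 35 of them on the same gene, whose name was then used. A further 10 loci held a single gene that shared 1 of their ends and carry its name here, although they reach beyond it. The other 52 entries overlapped several genes, part of a gene or no gene, and are given by position, as 1-based bases of the mitochondrial sequence in the deposited tables. Strand, exons and introns were not analysed here.

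The mitochondrial entries had low levels in both libraries. As the selection of RNA is not given, this need not hold for mitochondrial RNA in the tissue. Levels ran from 0.0238 to 18.7 RPKM in dek37, with a median of 0.688 RPKM, and from 0.0423 to 15.0 RPKM in WT, with a median of 0.814 RPKM. At least 1 RPKM was reached by 39 entries in dek37 and by 42 in WT, and at least 5 RPKM by 6 entries in dek37 and 8 in WT. The 97 entries took 0.0133% of the summed RPKM of dek37 and 0.0118% of that of WT. The summed RPKM of all entries itself differed, with 1.22e+06 in dek37 and 1.37e+06 in WT. By the reads read back, the share was at least 0.0093% in dek37 and at least 0.0101% in WT. The chloroplast entries stood higher, with medians of 5.15 RPKM in dek37 and 3.37 RPKM in WT. Reads read back from the RPKM values came to at least 1781 for the mitochondrial entries in dek37 and at least 1830 in WT, and 28 of the 97 entries had 20 reads or more in the higher library.

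Entries that were high in one library tended to be high in the other. Across all 97 entries, which share the libraries and their depth, the levels on the log2(RPKM + 0.1) scale had a Pearson r of 0.81 and a Spearman rho of 0.76. This includes entries whose values may be a single read or none in both libraries, which then follow the same length. Among the 39 entries averaging 1 RPKM or more, r was 0.68. The summed level was 161.7 RPKM in dek37 and 162.0 RPKM in WT (log2 ratio -0.0024). From the reads per kilobase over the summed lengths used, the log2 ratio was -0.11, and -0.14 without the highest entry. The near equality of the summed RPKM also depended on scaling. Its log2 ratio was -0.41 with a trimmed mean of M values and -0.19 with the chloroplast median set to 0. In bulk tissue, fewer cells or mitochondria and less RNA in each cannot be told apart. The plot of levels in both libraries shows a cloud around equality that widens below 1 RPKM.

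**Figure D1:**
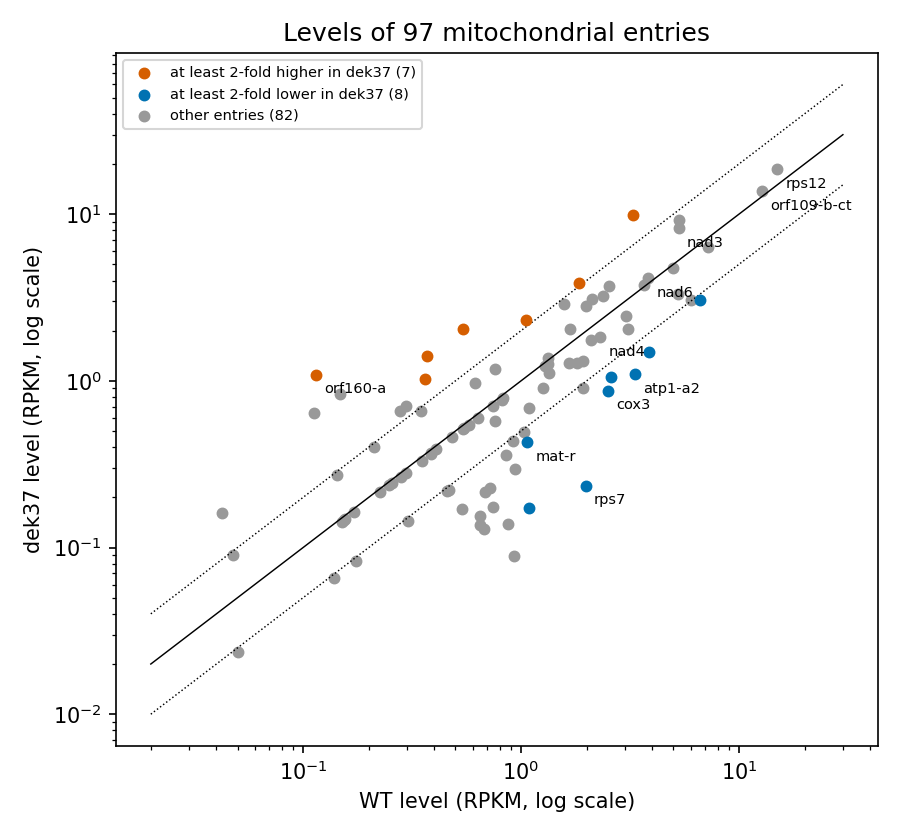
Level of each of the 97 mitochondrial entries in dek37 (vertical axis) and in WT (horizontal axis), in RPKM on log scales; the solid line marks equality and the dotted lines a 2-fold ratio. The 7 entries counted as at least 2-fold higher in dek37 are orange, the 8 counted as at least 2-fold lower are blue, and both kinds reached 1 RPKM in either library. Over the whole table, 22.9% of such entries were higher and 6.6% lower.

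A few entries held much of the signal. The 6 with a mean of 5 RPKM or more took 40.9% of the mitochondrial sum in dek37 and 30.2% in WT. The highest was rps12, at 262384 to 262761, which encodes a protein of the small ribosomal subunit. It had 18.7 RPKM in dek37 (134 reads) and 15.0 RPKM in WT (102 reads), and the ratio of 1.25 had a counting interval of 0.854 to 1.83. Counting intervals are exact (Clopper-Pearson) 95% intervals on read pairs and cover counting error only. The interval held equality, so a difference in rps12 was not detectable at this depth.

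Next came orf109-b-ct, at 348199 to 348528, with 13.7 RPKM in dek37 (86 reads) and 12.8 RPKM in WT (76 reads), and its ratio of 1.07 had a counting interval of 0.678 to 1.71. The suffix -ct marks DNA that the mitochondrial genome took up from the chloroplast, and this locus overlaps the mitochondrial copies of the chloroplast ribosomal protein genes rpl2 and rpl23. In the chloroplast genome itself, rpl23 has 2 entries. The one at 138023 to 138304 had 13.1 RPKM in dek37 and 12.2 RPKM in WT, and the one at 84433 to 84714 had 7.88 RPKM in dek37 and 5.14 RPKM in WT. Reads that fit both genomes cannot be assigned from these values, and how they were counted is not given. In all, 7 entries overlapped a gene with that suffix and took 11.3% of the mitochondrial sum in dek37 and 11.0% in WT.

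Of the other 4 entries averaging 5 RPKM or more, 3 were higher in dek37. Over the whole table, 16367 of the 21520 entries at that level were higher, so that the count does not set these entries apart. The locus at 46905 to 50115, which overlaps the transfer RNA genes trnE-a1 and trnP-a1, had 9.85 RPKM in dek37 and 3.27 RPKM in WT. The locus at 21090 to 22698, which overlaps orf115-b, orf396 and orf342, had 9.24 RPKM in dek37 and 5.29 RPKM in WT. It was the entry with the most reads, at least 210 in dek37 and 114 in WT, and its ratio of 1.75 had a counting interval of 1.26 to 2.46. The third was nad3, at 262806 to 263162, which encodes a membrane subunit of complex I and had 8.28 RPKM in dek37 and 5.29 RPKM in WT (ratio 1.56, counting interval 0.827 to 3.05). The fourth, 1 of 5 entries placed at 111497 to 115826, had 6.34 RPKM in dek37 and 7.24 RPKM in WT (ratio 0.876, counting interval 0.366 to 2.08).

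Complex I had some of the better measured genes. Of its 9 mitochondrial genes, 5 had a named entry, with log2 differences from -0.31 to 0.64 and a median of 0.10. Of the 4 that reached 1 RPKM, 0 differed 2-fold, a number too small to set against the 22.9% higher and 6.6% lower over the whole table, and an unnamed entry that overlaps nad5 was 2-fold higher. Besides nad3, nad6 at 565003 to 565665 had 4.12 RPKM in dek37 (52 reads) and 3.84 RPKM in WT (46 reads), and nad9 at 101544 to 102116 had 3.12 RPKM in dek37 (34 reads) and 2.12 RPKM in WT (22 reads). These are a membrane subunit and a subunit of the peripheral arm. The membrane subunit gene nad4, at 76132 to 84976, contains introns and had 1.83 RPKM in dek37 and 2.30 RPKM in WT. Its values stand for at least 52 reads in dek37 and 62 in WT. Another gene with introns, nad7 at 237577 to 243574, stood at 0.708 RPKM in dek37 and 0.746 RPKM in WT, which is the same number of reads in both. Of the 8 listed genes with group II introns, nad4 and nad7 were the 2 with a named entry, and the other 6 were nad1, nad2, nad5, cox2, ccmFC and rps3. Summed over its 5 named entries, complex I stood at 18.1 RPKM in dek37 and 14.3 RPKM in WT.

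The gene nad2 itself had no entry that shared its ends. Among the entries, 2 overlapped the nad2 gene of the table. The entry at 509973 to 510266 had 0.242 RPKM in dek37 and 0.255 RPKM in WT, the same number of reads in both libraries and possibly none, since the tables hold no zero and the value of a single read may also stand for 0. The entry orf117-c, at 510534 to 510887, lies wholly inside the nad2 gene and had 0.297 RPKM in dek37 (2 reads) and 0.940 RPKM in WT (6 reads). Its ratio of 0.316 had a counting interval from 0.0060 to 3.94. A change at these entries in either direction was therefore not detectable at this depth, they cover only part of nad2, and values per entry do not tell spliced from unspliced RNA. Part of nad1, also a complex I gene, was overlapped by the entry at 50401 to 50637, with 0.491 RPKM in dek37 (at least 2 reads) and 1.04 RPKM in WT (at least 4 reads).

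**Figure D2:**
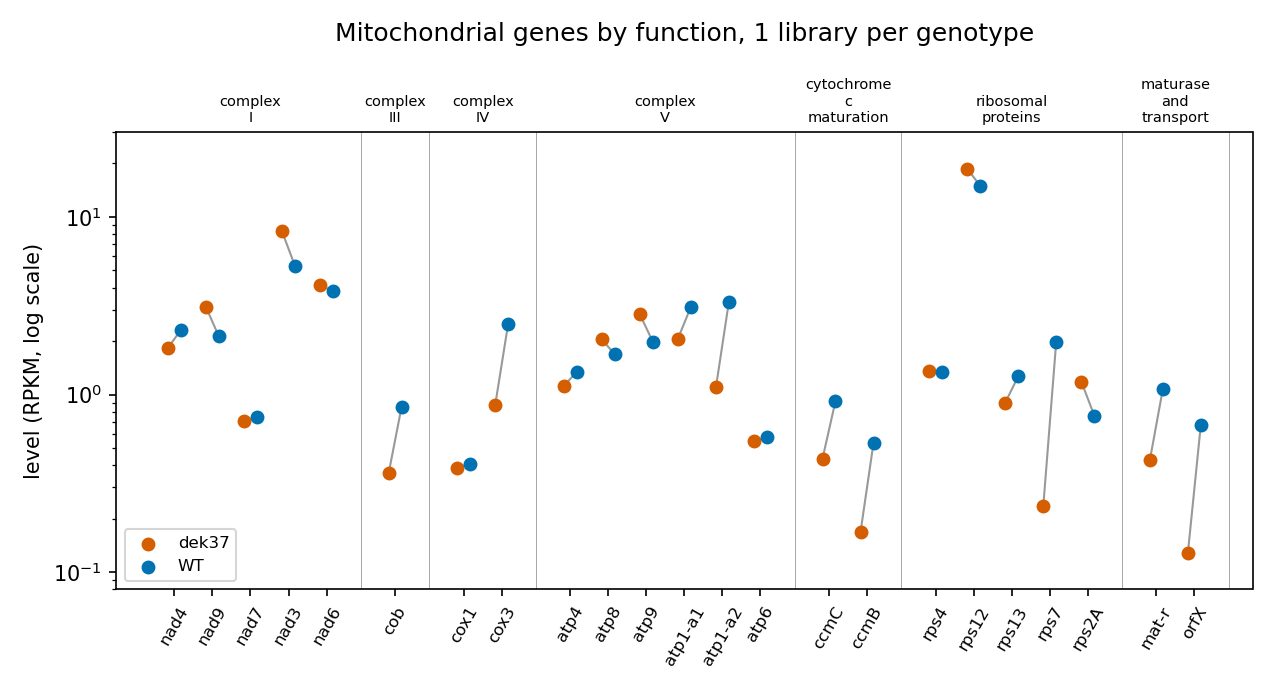
Level in RPKM (log scale) of the mitochondrial genes with a named entry, grouped by function, with the dek37 library in orange left of the WT library in blue and 1 value per genotype. The widest gaps are those of rps7 and orfX.

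The other respiratory complexes had fewer reads. For complex III, cob at 310906 to 312072, which encodes cytochrome b, had 0.359 RPKM in dek37 (8 reads) and 0.852 RPKM in WT (18 reads), below the 1 RPKM asked for. For complex IV (cytochrome c oxidase), the locus of cox3 at 441570 to 442510 had 0.872 RPKM in dek37 (at least 14 reads) and 2.49 RPKM in WT (at least 38 reads). The ratio there was 0.350 (counting interval 0.124 to 0.869) and the log2 difference -1.42. The locus of cox1, at 354726 to 356451, had 0.388 RPKM in dek37 and 0.408 RPKM in WT, from equal reads in both libraries. These may be as few as a single read or none in each, so whether a difference could have been seen is not known. The locus at 541369 to 545055, which overlaps cox2, had equal reads, at least 8 in each library, at 1.22 RPKM in dek37 and 1.29 RPKM in WT.

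Complex V (ATP synthase) had 6 named entries, of which 5 reached 1 RPKM. Of these, 1 was 2-fold lower and 0 were 2-fold higher, where the whole table had 6.6% lower and 22.9% higher, so that the count does not set complex V apart. The gene atp1, which encodes the alpha subunit of the catalytic head, has 2 loci, of which 1 was 2-fold lower in dek37. The locus of atp1-a1, at 454351 to 456359, had 2.06 RPKM in dek37 and 3.11 RPKM in WT (log2 difference -0.57, counting interval of the ratio 0.401 to 1.08). The locus of atp1-a2, at 523288 to 525296, had 1.10 RPKM in dek37 and 3.33 RPKM in WT (log2 difference -1.52). Its ratio of 0.330 had a counting interval of 0.128 to 0.765. The 2 loci have the same span of 2009 bases, and their sum was 3.16 RPKM in dek37 and 6.44 RPKM in WT. Values nearer to each other were those of atp9, for a subunit of the membrane ring, with 2.83 RPKM in dek37 and 1.99 RPKM in WT, and of atp8, with 2.05 RPKM in dek37 and 1.68 RPKM in WT. At atp4 the levels were 1.12 RPKM in dek37 and 1.34 RPKM in WT. The values of atp6, 0.545 RPKM in dek37 and 0.574 RPKM in WT, came from equal reads in both libraries. These reads too may be as few as a single one or none in each, so whether a difference could have been seen is not known.

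The ribosomal protein genes were uneven. Of 9 listed, 5 had a named entry, with log2 differences from -2.63 to 0.57. The lowest was rps7, a small subunit protein gene at 433538 to 433984, with 0.235 RPKM in dek37 (2 reads) and 1.98 RPKM in WT (16 reads). The ratio was 0.119, with a counting interval from 0.0027 to 0.885 that is wide because of the 2 reads in dek37. The gene rps2A, at 479553 to 481148, had 1.18 RPKM in dek37 (36 reads) and 0.761 RPKM in WT (22 reads), and rps4 at 19813 to 20889 was level, with 1.36 RPKM in dek37 (28 reads) and 1.33 RPKM in WT (26 reads). At rps13, the levels were 0.900 RPKM in dek37 (6 reads) and 1.26 RPKM in WT (8 reads). The locus at 160501 to 164661, which overlaps rpl16 and rps3, had at least 98 reads in dek37 and 184 in WT. It stood at 3.06 RPKM in dek37 and 6.05 RPKM in WT (ratio 0.506, counting interval 0.350 to 0.723), and its log2 difference of -0.96 fell just short of 2-fold. The locus at 63562 to 64041, which overlaps rps3 and orf127, had 3.73 RPKM in dek37 and 2.54 RPKM in WT.

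Genes for RNA and protein maturation were low in both libraries, and 1 of them, mat-r, was 2-fold lower in dek37. The locus of mat-r, which encodes a splicing maturase, lies at 267745 to 269870 and had 0.427 RPKM in dek37 (at least 16 reads) and 1.07 RPKM in WT (at least 38 reads). The ratio was 0.3997 (counting interval 0.151 to 0.956). The gene orfX, related to a membrane protein of twin-arginine protein transport, had 0.129 RPKM in dek37 (2 reads) and 0.678 RPKM in WT (10 reads). Of the genes for cytochrome c maturation, ccmC had 0.436 RPKM in dek37 and 0.918 RPKM in WT, and ccmB had 0.169 RPKM in dek37 and 0.534 RPKM in WT. The reads were few. With 6 reads in dek37 and 12 in WT for ccmC, and 2 in dek37 and 6 in WT for ccmB, the counting intervals of both held equality. Across the 23 named entries of genes other than open reading frames of unknown function, 8 had higher and 15 lower values in dek37, with a median log2 difference of -0.25. Of the 15, 3 (nad7, cox1 and atp6) had equal reads and were lower only through library size. Over the whole table, 58.6% of entries had higher and 41.4% lower values in dek37. The sums of the 23 were 52.9 RPKM in dek37 and 53.6 RPKM in WT. The 22 named open reading frames had 7 higher and 15 lower values, 5 of the 15 with equal reads, with a median of -0.06 and sums of 34.5 RPKM in dek37 and 35.7 RPKM in WT.

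Counts of 2-fold differences were made on the log2(RPKM + 0.1) scale among entries that reached 1 RPKM in either library, a scale that understates changes of low entries. Of the 47 mitochondrial entries at that level, 8 (17%) were at least 2-fold lower in dek37 and 7 (14.9%) at least 2-fold higher. Over the whole table, 6.6% of 37491 entries were lower and 22.9% higher by the same rule, and of the 26 chloroplast entries 1 was lower and 2 were higher. At 4-fold, 2 mitochondrial entries (4.26%) were lower and 1 (2.13%) higher, against 1.96% lower and 6.47% higher over the table. Among the entries whose higher level lay between 1 RPKM and the highest mitochondrial level, the shares were 7.93% lower and 26.1% higher. The split depended on scaling. With the median difference of all entries of at least 10 RPKM set to 0, a shift of 0.40 in log2, 12 of 44 mitochondrial entries (27.3%) were lower and 3 (6.82%) higher, against 11.5% lower and 13.2% higher over the table.

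The 8 lower entries were rps7, cox3, mat-r, atp1-a2 and 4 loci without a single name. The locus at 564155 to 564946, which overlaps orf120 and orf149-a, had 3.04 RPKM in dek37 (at least 26 reads) and 6.64 RPKM in WT (at least 54 reads). One entry at 111497 to 115826 had 1.49 RPKM in dek37 (at least 26 reads) and 3.86 RPKM in WT (at least 64 reads). Each of these 6 entries and loci had a counting interval below equality. The other 2, at 120929 to 121513 and at 129509 to 132560, had 1.06 RPKM and 0.173 RPKM in dek37 and 2.60 RPKM and 1.09 RPKM in WT, and their intervals held equality.

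The 7 higher entries had few reads, and 1 of them had an interval above equality. This was the locus at 46905 to 50115, with at least 38 reads in dek37 and 12 in WT, a ratio of 3.01 and an interval of 1.15 to 9.20. The largest difference was that of orf160-a, at 191869 to 192351, with 1.09 RPKM in dek37 (10 reads) and 0.115 RPKM in WT (1 read, possibly none), and a log2 difference of 2.47. At orf99-f, 374935 to 375234, there were 1.41 RPKM in dek37 (8 reads) and 0.370 RPKM in WT (2 reads). The locus at 107700 to 108050, which overlaps orf117-a, had 2.05 RPKM in dek37 and 0.540 RPKM in WT. At 511894 to 514104 the levels were 1.03 RPKM in dek37 and 0.363 RPKM in WT, and at 51507 to 53059, which overlaps orf99-a1, 3.86 RPKM in dek37 and 1.85 RPKM in WT. The last was 1 of 2 entries at 204632 to 207081, a locus that overlaps nad5 of complex I, with 2.33 RPKM in dek37 (at least 14 reads) and 1.05 RPKM in WT (at least 6 reads), whereas the other entry there had 0.578 RPKM in dek37 and 0.760 RPKM in WT. Under all 4 other scalings the log2 differences at 51507 to 53059 (0.63 to 0.84) and of the 2-fold higher entry at 204632 to 207081 (0.69 to 0.89) were below 2-fold. At 511894 to 514104 the difference was 0.93 with the median of abundant entries set to 0 and with a trimmed mean. Under all 4 scalings, this entry and orf160-a fell below 1 RPKM in both libraries and were no longer counted.

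**Figure D3:**
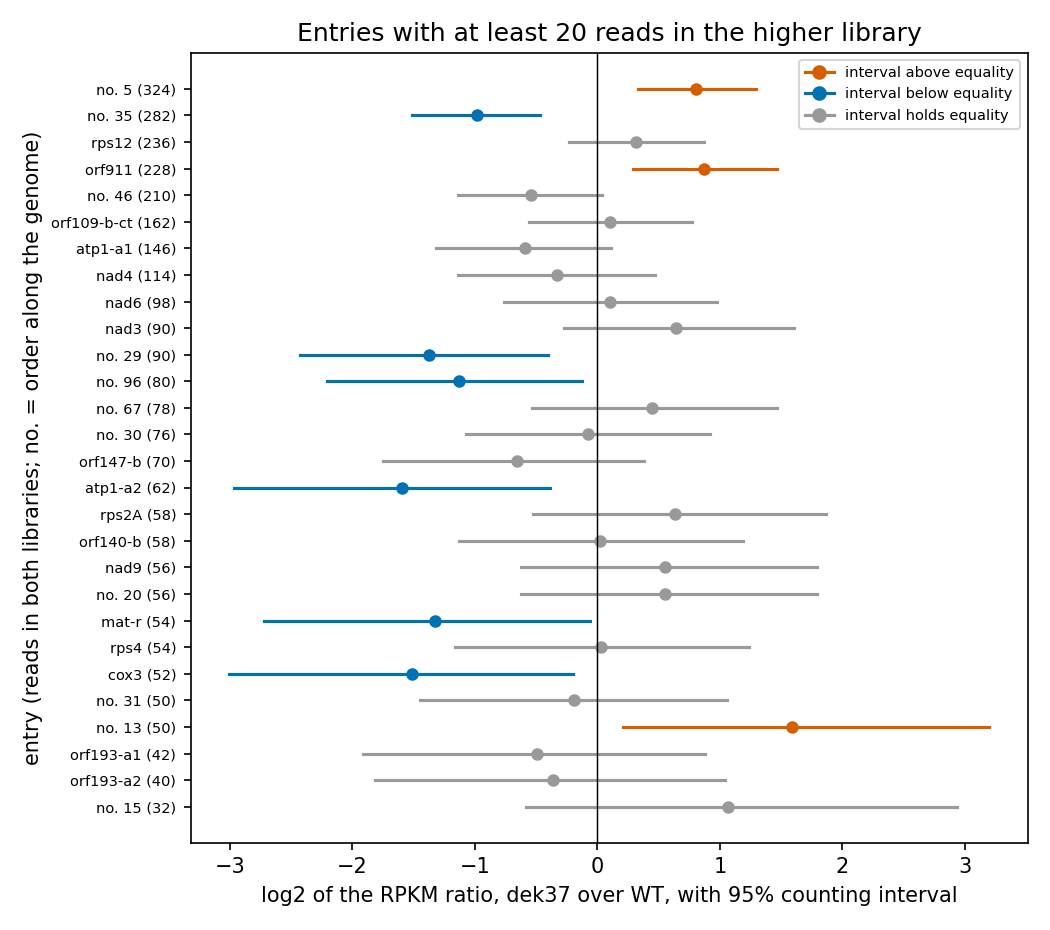
Ratio of dek37 to WT on a log2 axis, with its exact 95% counting interval, for the 28 mitochondrial entries with at least 20 reads in the higher library, ordered by reads in both libraries (given in parentheses; entries without a gene name carry their order along the genome). Orange intervals lie above equality, blue ones below it and grey ones hold it.

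Counting error alone left few single entries apart from equality. Of the 47 entries that reached 1 RPKM in either library, 10 (21.3%) had an interval that excluded it, 7 below and 3 above, against 31.9% of 26413 entries of the table in the same range of levels. The 3 above were the locus at 46905 to 50115, the locus at 21090 to 22698 and orf911, at 60824 to 63559, with 2.87 RPKM in dek37 (150 reads) and 1.57 RPKM in WT (78 reads). Of the 12 entries with 50 reads or more in the higher library, 5 excluded equality (41.7%), against 52.6% over the table. For entries whose length is not the full span, the reads are the smallest that give the values, so that their intervals may be wider than the true numbers would give.

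The spread of the differences is set out in the plot by genome. Among the 39 mitochondrial entries averaging 1 RPKM or more, the median log2 difference was -0.07 (interval over entries, -0.45 to 0.27), the interquartile range ran from -0.54 to 0.46 and the SD was 0.88. The 26 chloroplast entries at that level had a median of 0.19 (interval -0.17 to 0.45) and an SD of 0.63. The 35008 entries of the table had a median of 0.40 (interval 0.395 to 0.413) and an SD of 0.99. Entries share the 2 libraries and are not replicates, so these intervals do not test a difference between genomes. Within the mitochondrion the median was -0.29 for the 16 entries averaging 1 to 2 RPKM, -0.07 for the 17 of 2 to 5 RPKM and 0.48 for the 6 above, where the whole table had 0.47, 0.47 and 0.38 in the same classes. The spread was narrower among deeper entries, with an SD of 1.14 over the 56 entries with 2 to 20 reads in the higher library and of 0.74 over the 12 with 50 or more.

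**Figure D4:**
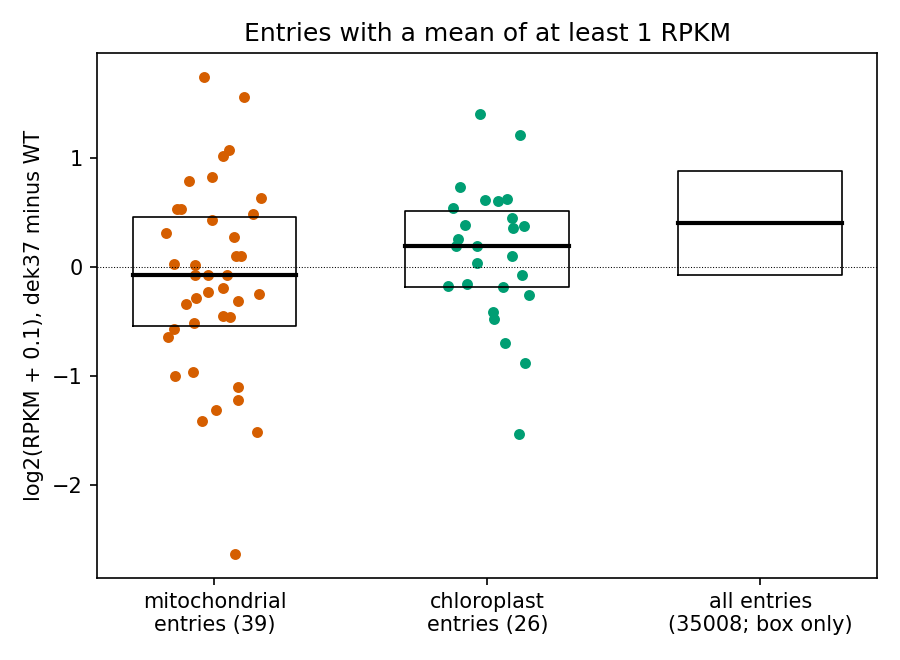
Difference of log2(RPKM + 0.1), dek37 minus WT, for entries averaging 1 RPKM or more; points are single mitochondrial and chloroplast entries, thick lines are medians and boxes span the interquartile range. The mitochondrial median of -0.07 lies below the chloroplast median of 0.19 and that of all entries, 0.40.

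Many entries lay just below 0 and had equal reads. At 24 of the 97 entries (24.7%), and at 3 of the 39 averaging 1 RPKM or more, the ratio of the RPKM values was that of the library totals, 0.949, so that both libraries had the same number of reads. Such an entry counts as lower in dek37 only because that library was larger. Among the other 73 entries, 31 were higher and 42 lower in dek37, with a median of -0.31.

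Neighbouring entries were compared along the genome. The 38 adjacent pairs among the 39 entries averaging 1 RPKM or more differed by a median of 0.84 in their log2 differences, much as all 741 pairs of these entries did (0.83). Their signs matched in 24 pairs, with a Pearson r of 0.24 and a Spearman rho of 0.23 over pairs that share both libraries. The 9 pairs less than 1000 bases apart had a median gap of 0.33 (interval 0.29 to 1.17). The 27 pairs farther apart had one of 0.85 (0.78 to 1.06), and the other 2 pairs shared a locus. Signs matched in 7 of the 9 close pairs (Pearson r 0.62, Spearman rho 0.65) and in 15 of the 27 others (r 0.24, rho 0.16). Adjacent pairs share entries and libraries and are not replicates, so a difference by distance was not tested. One close pair was rps12 and nad3, 44 bases apart and known in plants as a joint transcript, with log2 differences of 0.32 and 0.64. Another was atp1-a1 and orf193-a1, 214 bases apart, with -0.57 and -0.46. Their copies atp1-a2 and orf193-a2, at the same distance, had -1.52 and -0.34. The pair of nad6 and the locus at 564155 to 564946, 56 bases apart, had 0.10 and -1.10.

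The widest gap, 3.07, lay between the locus at 107700 to 108050 and an entry at 111497 to 115826 (1.75 and -1.32), the first of which had at least 4 reads in dek37 and 1 in WT. Entries at the same locus were ordered by their dek37 level, and this order alone made that entry the neighbour. The others there averaging 1 RPKM or more had log2 differences of -0.07 and -0.19, so the gap would have been narrower with either. The narrowest, 0.00018, lay between the cox2 locus and orf110-c, which both had equal reads in the 2 libraries.

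**Figure D5:**
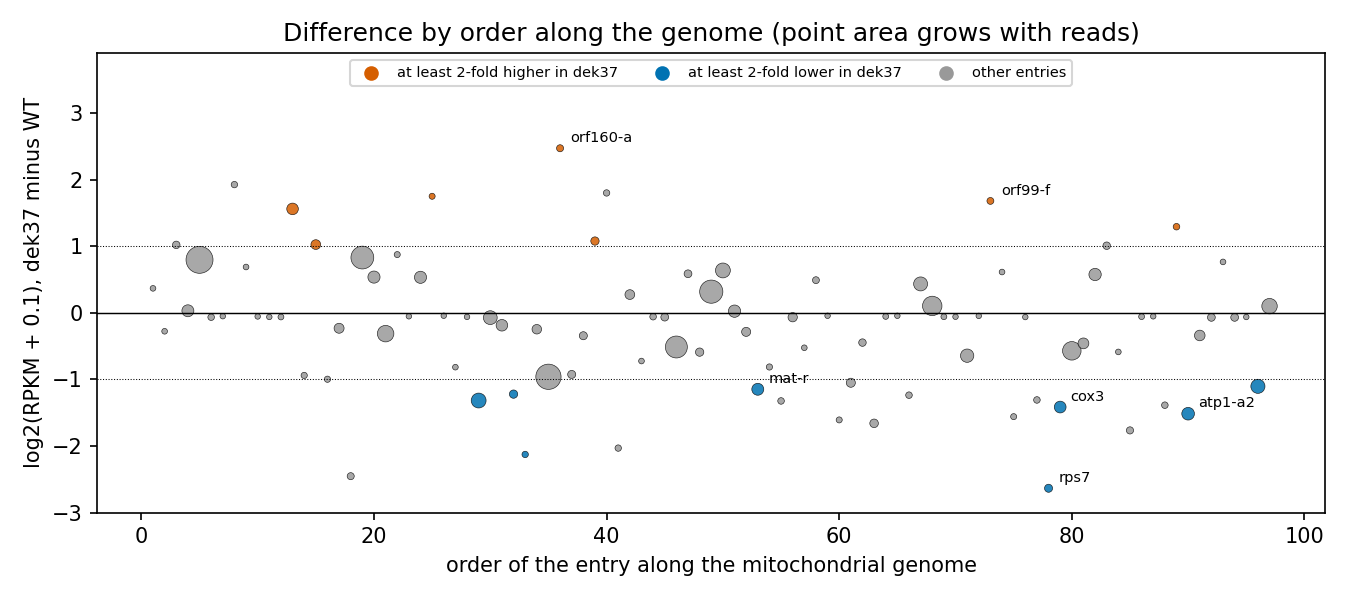
Difference of log2(RPKM + 0.1), dek37 minus WT, of all 97 entries in their order along the mitochondrial genome, with point area growing with the reads in both libraries and dotted lines at 2-fold. Entries counted as higher (orange) and lower (blue) in dek37 are interspersed along the genome, and the largest points lie within 2-fold.

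Where the gene table lists copies of a gene, marked by the endings a1 and a2, the values of their loci did not always differ in the same direction. The 2 loci of orf193 had 1.29 RPKM each in dek37, and 1.81 RPKM and 1.65 RPKM in WT. Of the loci around orf99-a1 and orf99-a2, the first was 2-fold higher in dek37 (log2 difference 1.02) and the second 2-fold lower (-1.22), while their summed level was 4.92 RPKM in dek37 and 4.45 RPKM in WT. The counting intervals of both ratios held equality (0.669 to 7.67 and 0.068 to 1.78), and the loci span 1553 and 585 bases. The loci around trnN-a1-ct and trnN-a2-ct had log2 differences of -0.06 and -2.13. They span 1321 and 3052 bases. The reads of the first may be as few as a single one or none in each library, and the interval of the second, 0 to 2.30, held equality. How reads that fit both copies, or copies of mitochondrial DNA in the nucleus, were assigned is not given, so that the level of a single copy is uncertain.

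Several entries shared 1 locus at 5 places. The locus at 111497 to 115826 held 5 entries, which had summed levels of 13.2 RPKM in dek37 and 17.04 RPKM in WT, with log2 differences from -1.32 to -0.06. The 3 entries at 273331 to 275849, which overlaps rps1 and the cytochrome c maturation gene ccmFN, had summed levels of 1.23 RPKM in dek37 and 2.01 RPKM in WT. One of them had equal reads, at least 14 in each library, and the others at least 2 in dek37 against 4 and 6 in WT. The 2 entries at 95774 to 98789, which overlaps ccmFC, had summed levels of 0.397 RPKM in dek37 and 0.291 RPKM in WT. The last locus, at 307593 to 308514 over orf147-a, orf99-e and orf119-b, held 2 entries with 0.322 RPKM in dek37 and 0.896 RPKM in WT in sum. Whether entries at 1 locus are transcripts or genes is not stated.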

How the data were processed

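The authors deposited 1 table of RPKM values per library, per the file headers. Per the labels' protocols, Trizol extraction was followed by an RNeasy clean-up with DNase. The submitters' processing notes list Bowtie 0.12.2. The sources used here do not give the genome build, annotation, counting program or filters. Library totals were the commonest product of RPKM and span less 2 bases, taking the commonest value as that of 1 read, which no source states. A length of at least 30 bases giving 1 read or an even number in both libraries (relative tolerance 1e-08) then gave the reads, at the full span (to within 5 bases) for 35 mitochondrial entries and as the smallest that fit for 62. A value of 1 read was counted as 0 read pairs in the intervals. The reading back and the calls were run on simulated data built with these same assumptions, so that run cannot show whether they hold here. With 1 library per genotype no test was run. Differences are log2(RPKM + 0.1), dek37 minus WT, and a call asked for 2-fold and for 1 RPKM in either library. Intervals of medians are 95% order-statistic (binomial) intervals. Entries described singly were those with a mean of at least 5 RPKM, those called, the 4 with the most reads, and the widest and narrowest adjacent pairs; the entries of the listed genes were added. Members, lists and settings were chosen with earlier results of these data known. Names came from positions: 39 of 88 loci matched at both ends, where the rule had asked for most, so that names were limited to single loci by a rule set after seeing the match. Listed symbols were adapted to the gene table at the same time, and a planned list of ribosomal RNAs was not run. The alternatives were other pseudocounts, scalings, minimum levels and thresholds. Python 3.11.15, numpy 2.4.6, pandas 2.3.3 and scipy 1.17.1 were used.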

Additional observations from a re-analysis of the deposited data

How the results depend on the processing

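No paired analysis was possible because there was a single library of either genotype, and no library could be left out. The summed level of -0.0024 in log2 became -0.41 with the median difference of abundant entries set to 0, -0.41 with a trimmed mean of M values and -0.31 when the 50 most abundant entries were left out of the totals, and the median of -0.07 became -0.47, -0.47 and -0.37. Of these 3 medians, -0.37 lay within the interval over entries (-0.45 to 0.27) and the others below it. The median also stayed within it with the chloroplast median set to 0 (-0.26), both other pseudocounts and no minimum. The same held for 20 reads or more, 1 entry per locus and named entries alone. At a minimum of 5 RPKM the median was 0.48 over 6 entries. Against 7 higher and 8 lower entries, a pseudocount of 1 gave 1 and 2, no minimum level 11 and 19, a minimum of 5 RPKM 1 and 1, at least 20 reads 2 and 5, 4-fold 1 and 2, and named entries alone 2 and 4. The 4 scalings gave 3 higher entries each and 11 or 12 lower. Under each of them, orf160-a and the entry at 511894 fell below the minimum level in both libraries and left the count. With a pseudocount of 0, both counts stayed within 1.5 times. The median gap between neighbours, 0.84, was 0.62 with a pseudocount of 1. No entry called 2-fold changed direction under a pseudocount or scaling, but 12 of the 15 fell below 2-fold with a pseudocount of 1, and those at 51507 and at 204632 under every scaling and at 511894 under the median and the trimmed mean; among those averaging 5 RPKM or more that were not called, rps12 became -0.08 and -0.09 and orf109-b-ct -0.30 and -0.30 under the median and the trimmed mean. Named entries alone were chosen after seeing the data. Depth limits most entries: over 1 kb, a single read gives 0.0523 RPKM (dek37) or 0.0551 RPKM (WT).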
